A study of Mus musculus with 19 samples.

Results

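The first response of C2C12 cells to thapsigargin was measured as the difference between 3 libraries exposed to the drug at 100 nM for 2 h and 3 libraries that received the vehicle DMSO for 2 h. These 6 libraries are part of 19, and they were chosen by their labels alone. C2C12 is an established mouse myoblast line, labelled wild type, grown in DMEM with 10% fetal bovine serum, and all groups are of this line, so that the data speak for 1 cultured line. The study also holds DMSO and thapsigargin groups of 6 h (3 libraries each) and 12 h (2 libraries each), and 3 libraries of 6 h of drug followed by 48 h without it. Its title asks how the transcription factors ATF4 and C/EBP gamma act together in the integrated stress response. Whether the replicates came from separate cultures is not labelled, so p-values describe the spread among these libraries only, which may be technical.

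Thapsigargin blocks SERCA, the pump that fills the endoplasmic reticulum (ER) with calcium. An ER short of calcium folds proteins poorly, and sensors in its membrane respond. PERK phosphorylates the initiation factor eIF2, which lowers protein synthesis and favours translation of ATF4, the core of the integrated stress response. IRE1 splices the mRNA of XBP1 and cleaves some mRNAs at the ER membrane, and ATF6 is cut to release a transcription factor. Calcium that leaves the ER can also reach calcium-regulated kinases and phosphatases in the cytosol, which act on immediate early genes.

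Each library of 2 h held 32129804 to 40964140 reads counted in genes. DMSO replicate 3 stood apart from the other 5. Mitochondrially encoded genes took 15.8% of its counted reads, against 2.80% and 3.07% in DMSO replicates 1 and 2 and 2.31% to 2.36% in the thapsigargin libraries. Of the genes tested, 1914 (10.6%) differed more than 2-fold between DMSO replicates 1 and 3, whereas 14 did so between DMSO replicates 1 and 2, and 0 to 10 between pairs of thapsigargin libraries. Calls are therefore also given without it where they differ. For a called gene whose call did not hold in the fit without 1 of the 6 libraries, those libraries are named, with the highest adjusted p among these fits. The 7 myoblast markers checked were all above 1 CPM (reads per 1000000 counted reads, after scaling), with sums of 2510 to 3140 CPM in DMSO and 2230 to 2260 CPM in thapsigargin. Of the macrophage markers 5 of 6 lay under 1 CPM (2 had no count), as did 2 of 4 endothelial, 2 of 4 epithelial, 3 of 4 adipocyte and 2 of 4 osteoblast markers.

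After 2 h of thapsigargin, 543 genes were higher and 273 were lower, of 18039 tested (edgeR quasi-likelihood test across all 19 libraries, Benjamini-Hochberg adjusted p under 0.05). This was 4.52% of the genes tested, 3.01% higher and 1.51% lower. The increases were larger than the decreases: 432 genes rose and 133 fell by 2-fold or more, 211 rose and 19 fell by 4-fold or more, and 78 rose and 1 fell by 16-fold or more. The median log2 difference was 1.65 over the called-higher genes, -0.99 over the called-lower genes and -0.04 over all genes tested. Genes called higher took 1.50%, 1.45% and 1.14% of the reads in DMSO replicates 1 to 3 and 4.69%, 4.52% and 4.39% in the thapsigargin libraries, and those called lower went from 3.32%, 3.27% and 3.68% to 1.95%, 1.98% and 2.06%. With library totals in place of TMM factors, the median over all genes became 0.17 and the calls became 470 higher and 48 lower. Leaving out thapsigargin replicate 1, 2 or 3 gave 261, 307 or 327 higher and 59, 73 or 83 lower, and the 5 libraries of 2 h fitted alone without DMSO replicate 3 gave 4214 higher and 4193 lower of 15176, so that both the number and the share of decreases depend on the scaling and on the libraries fitted.

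**Figure D1:**
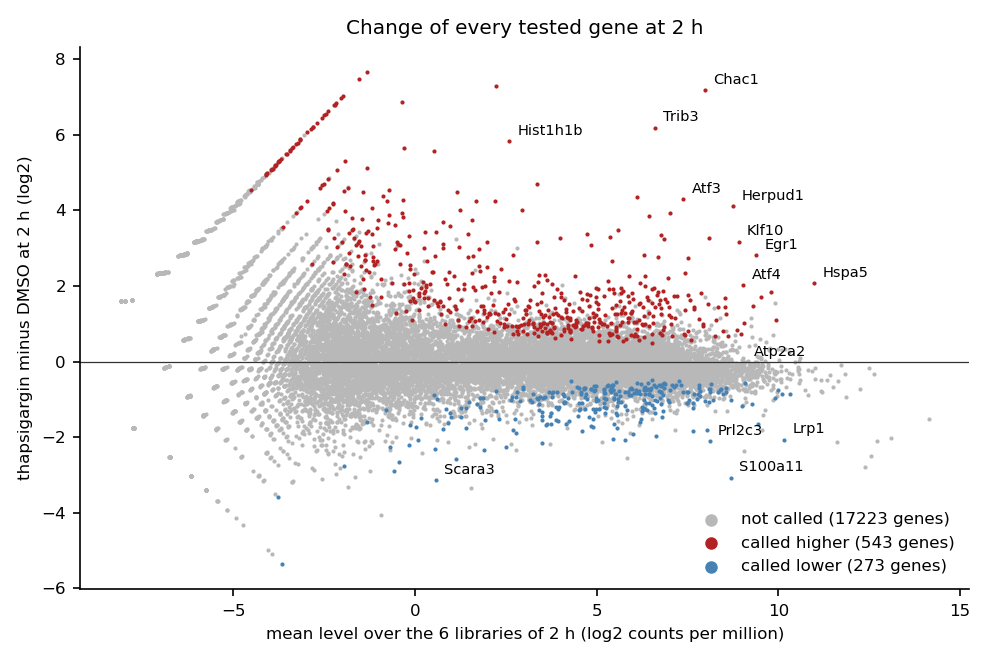
Log2 difference between thapsigargin and DMSO at 2 h (vertical axis) against the mean level over the 6 libraries (horizontal axis, log2 CPM), 1 point for each of the 18039 genes tested. The 543 genes called higher reach farther from 0 than the 273 called lower, and Atp2a2, a gene for the drug's target, lies at 0.

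Without DMSO replicate 3 the same model called 446 genes higher (2.48% of 17955) and 224 lower (1.25%). All 543 and all 273 genes kept their sign without that library, and 384 and 153 of them were still called. In all 543 and in 271 of the 273 the groups of libraries did not overlap, so the kept sign was nearly fixed in advance. The 6 libraries of 2 h do not overlap between the groups for 6948 of the 18039 genes (38.5%), so a gap between the groups is common in these data and is not by itself a call. The median level in DMSO was 4.90 CPM for called-higher genes, 53.6 CPM for called-lower genes and 9.92 CPM for all genes. Of the 543, 198 lay under 1 CPM in DMSO (36.5%), near the 32.8% of all genes tested, and of the 273, 5 did (1.83%). A gene with few counts in DMSO has little room to be called lower. Among protein-coding genes the median span was 17.6 kb in those called higher and 17.5 kb in those called lower, against 23.7 kb over all tested. Protein-coding genes made up 448 (82.5%) of the increases and 254 (93.0%) of the decreases, against 77.6% of all genes tested, and the increases included 35 lincRNAs (6.45%, against 3.95% of all genes) and 14 antisense RNAs (2.58%, against 3.73%). Since the strand setting of the counting is not known, reads of antisense genes cannot be told apart from those of their partners.

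The integrated stress response had the highest share of called members among the lists checked. Of 18 of its transcription factors and feedback genes tested, 14 rose and none fell, and the list's median log2 difference was 2.08. Chac1, which degrades glutathione and is a target of ATF4, lies on GRCm38 at chr2:119351229-119354381. It stood at 4.53, 3.67 and 2.18 CPM in DMSO replicates 1 to 3 and at 505, 516 and 482 CPM in the thapsigargin libraries. Every thapsigargin library lay far above every DMSO library, and DMSO replicate 3 was the lowest. The log2 difference was 7.18 ± 0.40 (SE), a 145-fold difference of mean CPM, with an edgeR adjusted p of 3.8e-08.

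Trib3 (chr2:152337422-152344032), a pseudokinase that restrains ATF4 and AKT signalling, went from 3.2, 3.44 and 1.2 CPM to 189, 203 and 182 CPM, a log2 difference of 6.19 ± 0.33 (adjusted p = 3.3e-08). DMSO replicate 3 was the lowest of the 6 libraries, and the groups lay far apart. Ddit3, the pro-apoptotic factor CHOP, stood at 7.15, 7.45 and 4.83 CPM in DMSO and 130.4, 137 and 128 CPM in thapsigargin, a log2 difference of 4.35 ± 0.74 (adjusted p = 0.0026). Atf3, a stress-induced repressor and partner of AP-1, stood at 19.4, 20 and 9.3 CPM and 314, 301 and 341 CPM, a log2 difference of 4.30 ± 0.36 (adjusted p = 5e-06). In each of these genes the 3 thapsigargin libraries lay within a narrow band while DMSO replicate 3 was below the other DMSO libraries.

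Atf4 itself (chr15:80255184-80257541) stood at 242, 244 and 132 CPM in DMSO and 826, 874 and 817 CPM in thapsigargin. The DMSO libraries thus split, with replicate 3 low, and the drug libraries were all above them. The log2 difference was 2.03 ± 0.23 (adjusted p = 7.9e-05), and it was 1.79 without DMSO replicate 3. Cebpg, the partner of ATF4 named in the study's title, stood at 32.2, 33.8 and 18.9 CPM and 103, 106 and 85.9 CPM, a log2 difference of 1.80 ± 0.21 (adjusted p = 8.1e-05). Cebpb, another C/EBP factor, stood at 34.3, 27.3 and 55.5 CPM and 83.5, 86.1 and 83.1 CPM. Its groups did not overlap, but DMSO replicate 3 was the highest control, and the log2 difference of 1.11 ± 0.42 did not pass the test (adjusted p = 0.16, and 0.12 without that library). The outcome for Cebpb depended on the fit. In edgeR it passed in the 6 libraries of 2 h alone (adjusted p = 0.035), with library totals (0.016) and with length and GC offsets (0.012). It did not pass with DESeq2 (adjusted p = 0.12), with a replicate block in edgeR (0.19) or on leaving out any 1 library (up to 0.4).

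**Figure D2:**
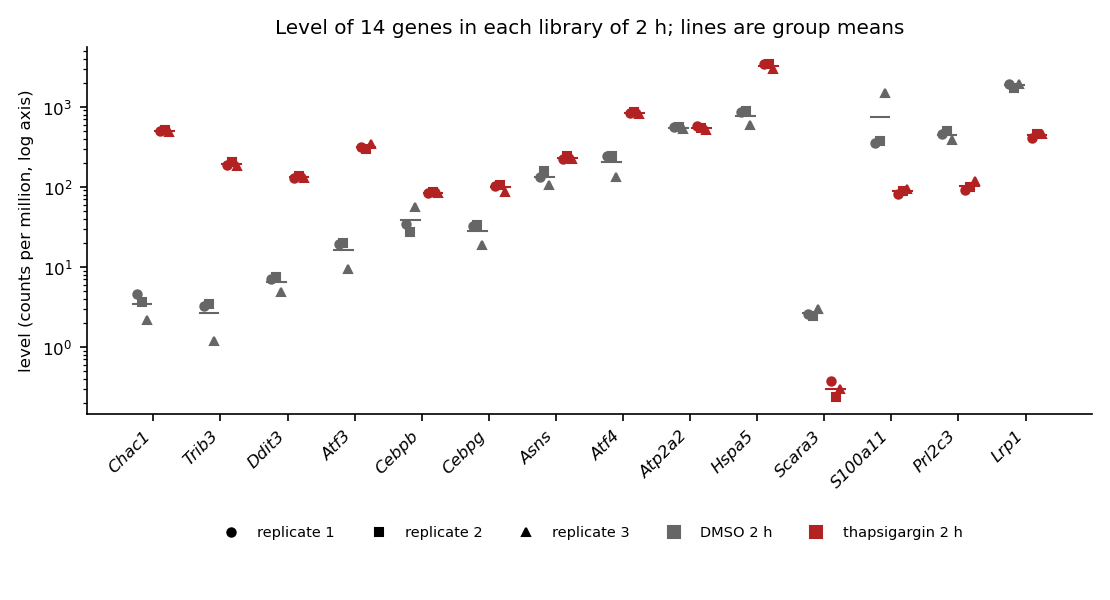
Level of 14 genes (vertical axis, CPM on a log axis) in each of the 6 libraries of 2 h, with DMSO in grey, thapsigargin in red, a marker shape for each replicate number and a line at each group's mean. The thapsigargin libraries sit close together in every gene, Atp2a2 is level, and DMSO replicate 3 is the lowest library for Chac1, Trib3, Ddit3, Atf3 and Atf4 and far the highest for S100a11.

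Sesn2, a brake on the growth kinase mTORC1, went from 11.7, 11.1 and 10.9 CPM to 156, 163 and 165 CPM and had the smallest standard error of the 15 named genes with the highest log2 differences, a log2 difference of 3.84 ± 0.18 (adjusted p = 6.7e-09). Nfil3, a bZIP repressor linked to the clock, went from 18.8, 17.3 and 11.4 CPM to 245, 237 and 240.4 CPM (log2 3.92 ± 0.25, adjusted p = 1.6e-07). Ddit4, a second mTORC1 brake also known as REDD1, rose by 2.83 ± 0.46 on the log2 scale (adjusted p = 0.002). These genes moved with little spread among the drug libraries. Ppp1r15a, which encodes GADD34, the subunit that takes phosphate off eIF2, rose by 2.01 ± 0.35 (adjusted p = 0.0031). The stress hormone gene Fgf21 was almost silent in DMSO, at 0.193, 0.528 and 0.223 CPM, and reached 5.69, 6.67 and 5.7 CPM (log2 4.24 ± 0.38, adjusted p = 7.6e-06), and the related Gdf15 rose by 1.14 ± 0.25 (adjusted p = 0.015). The other increases of the list were Vldlr (log2 2.14) and Nupr1 (log2 1.84). Atf5 (log2 0.12), Ppp1r15b (log2 0.85) and Eif4ebp1 (log2 0.45) did not pass the test. Without DMSO replicate 3, 13 of the 18 were called. DESeq2 called 15, where 1002 genes were higher and 691 lower of 18039. The 6 libraries of 2 h alone gave 17, where 1473 genes were higher and 931 lower of 14836. Here and below, calls lost on leaving out 1 library come from fits that share the spread over all groups. That spread was larger than in the 6 libraries of 2 h alone. The call of Nupr1 was lost on leaving out any 1 library, adjusted p up to 0.14, that of Gdf15 was lost on leaving out DMSO replicate 2 or thapsigargin replicate 2 or 3, adjusted p up to 0.066, and that of Vldlr was lost on leaving out DMSO replicate 1 or 2 or thapsigargin replicate 1 or 2, adjusted p up to 0.063.

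The promoters of some of these genes carry a C/EBP-ATF response element (CARE), the composite site on which ATF4 dimers with C/EBP proteins are known to act. Windows from 250 bases before to 50 after the gene's start were taken from RefSeq (GRCm38.p6) and searched on both strands for TGATGNAA. Stretches of 4 such windows are shown because these genes rose at 2 h and hold a match, together with Hspa5, whose window holds the ER stress element searched as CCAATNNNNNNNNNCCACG. Bases run 5′ to 3′ on the gene's strand, capitals mark the match, and each stretch extends up to 100 bases on either side of it.
Chac1: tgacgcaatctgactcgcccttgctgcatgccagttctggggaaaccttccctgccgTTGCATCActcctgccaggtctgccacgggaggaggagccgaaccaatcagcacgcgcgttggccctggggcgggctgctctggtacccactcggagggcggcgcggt
Atf3: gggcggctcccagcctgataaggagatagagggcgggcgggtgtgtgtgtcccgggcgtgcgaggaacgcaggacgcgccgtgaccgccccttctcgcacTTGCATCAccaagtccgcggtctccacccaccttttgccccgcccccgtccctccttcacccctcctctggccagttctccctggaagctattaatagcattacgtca
Asns: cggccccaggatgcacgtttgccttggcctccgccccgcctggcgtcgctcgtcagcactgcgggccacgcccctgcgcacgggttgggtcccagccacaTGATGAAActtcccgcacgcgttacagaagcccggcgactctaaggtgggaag
Trib3: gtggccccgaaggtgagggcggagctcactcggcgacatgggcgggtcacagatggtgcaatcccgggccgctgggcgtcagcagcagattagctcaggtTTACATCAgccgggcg
Hspa5: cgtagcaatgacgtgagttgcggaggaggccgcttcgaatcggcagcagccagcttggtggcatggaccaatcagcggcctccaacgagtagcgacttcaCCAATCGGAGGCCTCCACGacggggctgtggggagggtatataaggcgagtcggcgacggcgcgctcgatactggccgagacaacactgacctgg

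The Chac1 stretch is chr2:119350992-119351156 on the + strand and its match, in the reverse orientation, begins 193 bases before the start. The Atf3 stretch is chr1:191183336-191183543 on the - strand, with a match in the reverse orientation that begins 110 bases before the start. In Asns (chr6:7693180-7693332, - strand) a forward match begins 23 bases before the start. In Trib3 (chr2:152344031-152344146, - strand) the match is reversed and begins at base 15 after the start. The Hspa5 stretch (chr2:34771925-34772119, + strand) has a forward match 65 bases before the start. No printed stretch held a second match of the motifs searched, so none overlapped. Among called-higher genes with a promoter in the table, 34 of 376 held the CARE letters (9.04%), against 1 of 196 called-lower genes (0.51%), 355 of 11784 tested genes (3.01%) and 1304 of all 32851 windows (3.97%). The ER stress element was in 5 of the 376 (1.33%), in none of the 196 and in 21 of the 11784 (0.178%). The cyclic AMP response element TGACGTCA was in 19 (5.05%), 4 (2.04%) and 397 (3.37%) of the same 3 sets. These are shares of letters in a short window with no test, and no match was found in the window of Ddit3.

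Part of the amino acid programme, which holds many known targets of ATF4, rose at 2 h. Of 16 enzymes of amino acid synthesis and one-carbon metabolism, 5 rose, none fell and 15 had a positive difference (median log2 0.65, and 3 rose without DMSO replicate 3). Asns, asparagine synthetase, stood at 134, 158 and 106 CPM in DMSO and 226, 245 and 219.7 CPM in thapsigargin. The groups were apart, by less than the stress factors were, and the log2 difference was 0.80 ± 0.18 (adjusted p = 0.016). Gpt2, the mitochondrial alanine aminotransferase, went from 60.9, 65.9 and 43 CPM to 185, 192 and 159 CPM (log2 1.66 ± 0.17, adjusted p = 3.8e-05), and Mthfd2, a mitochondrial folate enzyme, rose by 1.16 ± 0.21 (adjusted p = 0.0043). Cth, which makes cysteine, rose by 2.04 and Pck2, the mitochondrial PEP carboxykinase, by 1.43 on the log2 scale. The serine synthesis genes Phgdh (log2 0.28), Psat1 (log2 0.26) and Psph (log2 0.87) did not pass the test. The calls of Cth and Pck2 were each lost on leaving out any 1 library (adjusted p up to 0.099 and 0.11), and that of Asns was lost on leaving out DMSO replicate 1 or thapsigargin replicate 1 or 2, adjusted p up to 0.078.

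Among 12 amino acid transporters 3 rose and 1 fell (median log2 1.04). In the 6 libraries of 2 h alone 7 rose and 1 fell. Slc7a11, the cystine carrier, went from 6.24, 8.64 and 7.12 CPM to 34.5, 40.8 and 29.5 CPM (log2 2.25 ± 0.34, adjusted p = 0.001). Slc1a4, a carrier of small neutral amino acids, stood at 37.3, 38.7 and 35.9 CPM and 113, 110.0 and 105 CPM (log2 1.55 ± 0.16, adjusted p = 3.3e-05). Slc3a2, the shared heavy chain of several carriers, rose by 1.52 ± 0.28 (adjusted p = 0.0051). Slc38a10 fell, with a log2 difference of -0.60 (adjusted p = 0.019, lost on leaving out DMSO replicate 1 or any 1 thapsigargin library, adjusted p up to 0.094). Of 20 cytosolic tRNA synthetases, which charge tRNAs with amino acids, 2 rose and none fell (median log2 0.42, and 1 rose without DMSO replicate 3). The 6 libraries of 2 h alone gave 7 increases and 1 decrease. Aars, for alanine, went from 377, 393 and 364 CPM to 638, 638 and 606 CPM (log2 0.73 ± 0.16, adjusted p = 0.017), and Tars, for threonine, from 233, 258 and 218 CPM to 379, 395 and 362 CPM (log2 0.68 ± 0.17, adjusted p = 0.031). Both calls are marginal: that of Aars was lost on leaving out DMSO replicate 1 or any 1 thapsigargin library, adjusted p up to 0.077, and that of Tars was lost on leaving out any 1 library, adjusted p up to 0.12.

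The ER's own machinery responded in a few genes. Of 22 chaperones and folding enzymes of the ER lumen, 4 rose and none fell (median log2 0.31). In the 6 libraries of 2 h alone 8 rose and 1 fell. Hspa5 (chr2:34771970-34777547), the chaperone BiP, stood at 859, 884 and 590.0 CPM in DMSO and 3461, 3398 and 2954 CPM in thapsigargin, the largest gain in CPM among the named genes. All drug libraries exceeded all controls, and the log2 difference was 2.07 ± 0.34 (adjusted p = 0.0021). Creld2, a folding factor induced by ER stress, rose by 1.56 ± 0.23 (adjusted p = 0.00073), Sdf2l1, an ER stress protein of the chaperone complexes, by 1.65 ± 0.29 (adjusted p = 0.0036), and Hyou1, an ER chaperone of the Hsp110 group, by 0.99 ± 0.21 (adjusted p = 0.013, lost on leaving out thapsigargin replicate 1 or 2, adjusted p up to 0.067). Hsp90b1 (log2 0.31), Calr (log2 0.24), Pdia4 (log2 0.55) and Dnajb9 (log2 0.74) did not pass. Dnajb9, a target of XBP1, stood at 20.2, 18.8 and 61 CPM in DMSO and 55.8, 57.1 and 54.5 CPM in thapsigargin, so that DMSO replicate 3 lay above the drug libraries.

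Of 16 genes of ER-associated degradation 2 rose and none fell (median log2 0.19). Herpud1, which recruits the ubiquitin ligase complex at the ER, went from 42.6, 35.3 and 64 CPM to 893, 837 and 727 CPM (log2 4.11 ± 0.33, adjusted p = 3e-06). Syvn1, that ligase, rose by 1.26 ± 0.34 (adjusted p = 0.049, lost on leaving out any 1 library but DMSO replicate 3, adjusted p up to 0.17). Among 13 stress sensors and eIF2 kinases only Xbp1 was called, at 126, 116 and 89.1 CPM in DMSO and 319, 309 and 274 CPM in thapsigargin (log2 1.45 ± 0.29, adjusted p = 0.0085). Gene counts do not show its splicing. Ern1, which encodes IRE1, had a log2 difference of 0.44, Eif2ak3, which encodes PERK, of 0.51, and Atf6 of 0.06, and none passed the test.

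Of 8 mRNAs known as targets of IRE1 cleavage, 4 fell and none rose (median log2 -0.78). The count was 3 without DMSO replicate 3 (median -0.55) and 1 with library totals (median -0.54). Scara3, a scavenger receptor, went from 2.54, 2.44 and 3.02 CPM to 0.372, 0.236 and 0.296 CPM. It was the most strongly lowered of the 8, with a log2 difference of -3.13 ± 0.48 (adjusted p = 0.0011). Col6a1, a collagen chain, stood at 147, 147 and 156 CPM and 64.5, 75 and 66.7 CPM (log2 -1.13 ± 0.19, adjusted p = 0.0028). Hgsnat, a lysosomal enzyme, differed by -0.84 (adjusted p = 0.017, lost on leaving out any 1 library but DMSO replicate 3, adjusted p up to 0.091) and Sparc, a matrix protein, by -0.86 (adjusted p = 0.035, lost on leaving out DMSO replicate 3 or any 1 thapsigargin library, adjusted p up to 0.15). Bloc1s1, a widely used reporter of this cleavage, had a log2 difference of -0.22 and did not pass. Galnt10 had 0.02.

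Immediate early genes formed the next broad group. Of 22 EGR, NR4A and KLF factors and other early genes, 12 rose and 1 fell (median log2 1.50). Egr1, a zinc finger factor induced by growth signals, stood at 92.2, 80.1 and 326 CPM in DMSO replicates 1 to 3 and at 1194, 1217 and 1109 CPM in thapsigargin. DMSO replicate 3 was more than 3 times as high as the other controls and still far below the drug libraries. The log2 difference was 2.82 ± 0.47 (adjusted p = 0.0021), and 3.77 without that library (adjusted p = 6.2e-05). Klf10, an early repressor, went from 92.1, 94.6 and 102 CPM to 922, 864 and 802 CPM (log2 3.17 ± 0.44, adjusted p = 0.00046), and Klf6 from 323, 346 and 364 CPM to 1122, 1154 and 1073 CPM (log2 1.70 ± 0.25, adjusted p = 0.00088). In both genes the controls lay close to each other. Arc, best known from neurons, stood at 29.4, 25.4 and 28.7 CPM and 156, 125 and 119 CPM (log2 2.26 ± 0.19, adjusted p = 5.1e-06).

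The other increases of the list were Egr2 (log2 1.95), Egr3 (1.58), Egr4 (5.58, from under 0.1 CPM), Nr4a1 (1.75), Btg2 (2.09), Ier2 (1.81), Ier3 (0.73) and Ier5 (1.42). The single decrease was Srf, the factor that drives many of these genes, at 242, 196 and 355 CPM in DMSO and 152, 141 and 144 CPM in thapsigargin (log2 -0.86 ± 0.19, adjusted p = 0.015). Its DMSO libraries were spread, and the call was lost on leaving out any 1 thapsigargin library, adjusted p up to 0.073. Myc had a log2 difference of 1.71 that did not pass with DMSO replicate 3 in the fit (adjusted p = 0.061), where it stood at 75.2, 74.3 and 207 CPM in DMSO and 392, 398 and 377 CPM in thapsigargin. Without that library its difference was 2.38 (adjusted p = 0.02). The calls of Ier3 and Ier5 were each lost on leaving out any 1 library but DMSO replicate 1, adjusted p up to 0.1 and 0.086. That of Egr3 was lost on leaving out any 1 library but DMSO replicate 3, adjusted p up to 0.14, and that of Ier2 was lost on leaving out DMSO replicate 1 or 2 or thapsigargin replicate 1, adjusted p up to 0.065.

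Of 12 FOS, JUN, BATF and small MAF genes, 4 rose and none fell (median log2 1.08, and 3 rose without DMSO replicate 3). Junb, a component of the AP-1 factor, went from 434, 391 and 340.4 CPM to 1468, 1401 and 1275 CPM (log2 1.83 ± 0.20, adjusted p = 5.1e-05), and Fosl2 from 204, 196 and 200.4 CPM to 569, 555 and 510.1 CPM (log2 1.44 ± 0.18, adjusted p = 0.00014). Fosb rose by 2.66 ± 0.40 (adjusted p = 0.00095). Fos itself, the classical early gene, had a log2 difference of 2.03 that did not pass (adjusted p = 0.062), at 6.38, 5.28 and 7.87 CPM in DMSO and 26.8, 22.8 and 30.2 CPM in thapsigargin. Jun had a log2 difference of 0.69 (adjusted p = 0.37), and its highest control was again DMSO replicate 3. The call of Mafk (log2 1.76) was lost on leaving out any 1 library, adjusted p up to 0.099.

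Feedback inhibitors of MAP kinase signalling were among the increases as well. Of 17 dual-specificity phosphatases, Sprouty and Spred genes and Errfi1, 7 rose and 1 fell (median log2 0.57). Dusp2, a nuclear phosphatase of ERK and p38, went from 12.3, 9.33 and 2.43 CPM to 90.7, 87.7 and 87 CPM (log2 3.47 ± 0.41, adjusted p = 9.9e-05). Spry2, an inhibitor of receptor tyrosine kinase signalling, stood at 70.5, 63.3 and 36.4 CPM and 129.7, 139 and 126 CPM (log2 1.21 ± 0.25, adjusted p = 0.0094). Dusp8 (1.45), Dusp14 (1.26), Dusp16 (1.28), Spry4 (1.04) and Errfi1 (1.10) were the other increases on the log2 scale. Dusp10, a phosphatase of JNK and p38, fell from 113, 110.1 and 187 CPM to 64.1, 64.9 and 71.2 CPM (log2 -1.04 ± 0.19, adjusted p = 0.0046). Without DMSO replicate 3 the list had 4 increases and 1 decrease, and with library totals 3 increases and no decrease. The calls of Dusp8, Dusp16 and Errfi1 were each lost on leaving out any 1 library (adjusted p up to 0.083, 0.13 and 0.14). That of Dusp14 was lost on leaving out DMSO replicate 2, adjusted p up to 0.052, and that of Spry4 was lost on leaving out thapsigargin replicate 1, adjusted p up to 0.053.

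Inhibitors of NF-kB, which are themselves its targets, were among the increases. Of 15 NF-kB subunits and feedback genes 4 rose and none fell (median log2 0.70, and 3 rose without DMSO replicate 3). Nfkbia, which encodes the inhibitor IkB alpha, went from 27, 25.8 and 15 CPM to 86.7, 82.4 and 79.1 CPM (log2 1.87 ± 0.25, adjusted p = 0.00032). Birc3, a ubiquitin ligase of the TNF receptor complex, stood at 0.11, 0.111 and 0.0838 CPM and 1.38, 1.39 and 1.05 CPM, a low level throughout (log2 3.60 ± 0.47, adjusted p = 0.0003). Nfkbie rose by 1.11 (adjusted p = 0.002) and Relb by 1.41 (adjusted p = 0.044, lost on leaving out any 1 library, adjusted p up to 0.16).

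Of 20 cytokines, chemokines and inflammatory genes 8 rose and 2 fell (median log2 1.88, with 5 and 1 without DMSO replicate 3 and 8 and 0 with library totals). Lif, a cytokine of the interleukin 6 family made by muscle cells, went from 20.9, 21.5 and 16.2 CPM to 207, 188 and 199.8 CPM (log2 3.34 ± 0.37, adjusted p = 6.1e-05). Ccl7, a chemokine for monocytes, went from 12.1, 13.7 and 13 CPM to 56.5, 48.1 and 45.2 CPM (log2 1.95 ± 0.18, adjusted p = 1.3e-05), and Cxcl5, a neutrophil chemokine, from 5.02, 6.06 and 3.94 CPM to 17, 19.1 and 16.4 CPM (log2 1.81 ± 0.18, adjusted p = 1.9e-05). For all 3 the 2 groups were tight and apart. Cxcl1 rose by 3.26 (adjusted p = 0.00029) and Ccl2 by 2.13 (adjusted p = 0.00071). Cxcl2 had no count in the DMSO libraries and 35 counts in the drug libraries, which against a floor of 3 counts per DMSO library is at least 3.42-fold higher. Cxcl10 (log2 2.10) and Csf2 (log2 3.05) were called at levels under 3 CPM, and the calls of Cxcl2, Cxcl10 and Csf2 were each lost on leaving out any 1 library (adjusted p up to 0.12, 0.096 and 0.15). The macrophage markers, whose cells also make such factors, summed to 3.75 to 11.2 CPM in DMSO and 2.41 to 3.07 CPM in thapsigargin. Most of each sum was Cd68, at 3.175, 3.472 and 10.52 CPM in DMSO replicates 1 to 3 and 2.037, 2.76 and 2.825 CPM in thapsigargin. Whether such cells add to the cytokine reads was not tested.

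The 2 decreases were Cx3cl1 and Cxcl13. Cx3cl1, a membrane-bound chemokine, fell from 111, 101 and 119 CPM to 45.9, 45.2 and 47.8 CPM (log2 -1.25 ± 0.14, adjusted p = 8.1e-05). Cxcl13, a B cell chemokine, stood at 5.11, 4.7 and 18.2 CPM in DMSO, with replicate 3 far above the others, and 1.73, 1.93 and 2.12 CPM in thapsigargin. Its log2 difference was -2.27 ± 0.50 (adjusted p = 0.017), and -1.34 without that replicate (adjusted p = 0.082), and the call was lost on leaving out DMSO replicate 3 or any 1 thapsigargin library, adjusted p up to 0.095. Of 17 growth factor ligands, Bdnf and Gdnf rose and none fell (median log2 0.21, and 0.47 with 1 increase without DMSO replicate 3). Gdnf went from 41.3, 48.1 and 54.7 CPM to 106, 115 and 109.9 CPM (log2 1.20 ± 0.24, adjusted p = 0.0076), and Bdnf rose by 1.58 ± 0.38 (adjusted p = 0.024, lost on leaving out any 1 library, adjusted p up to 0.082).

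**Figure D3:**
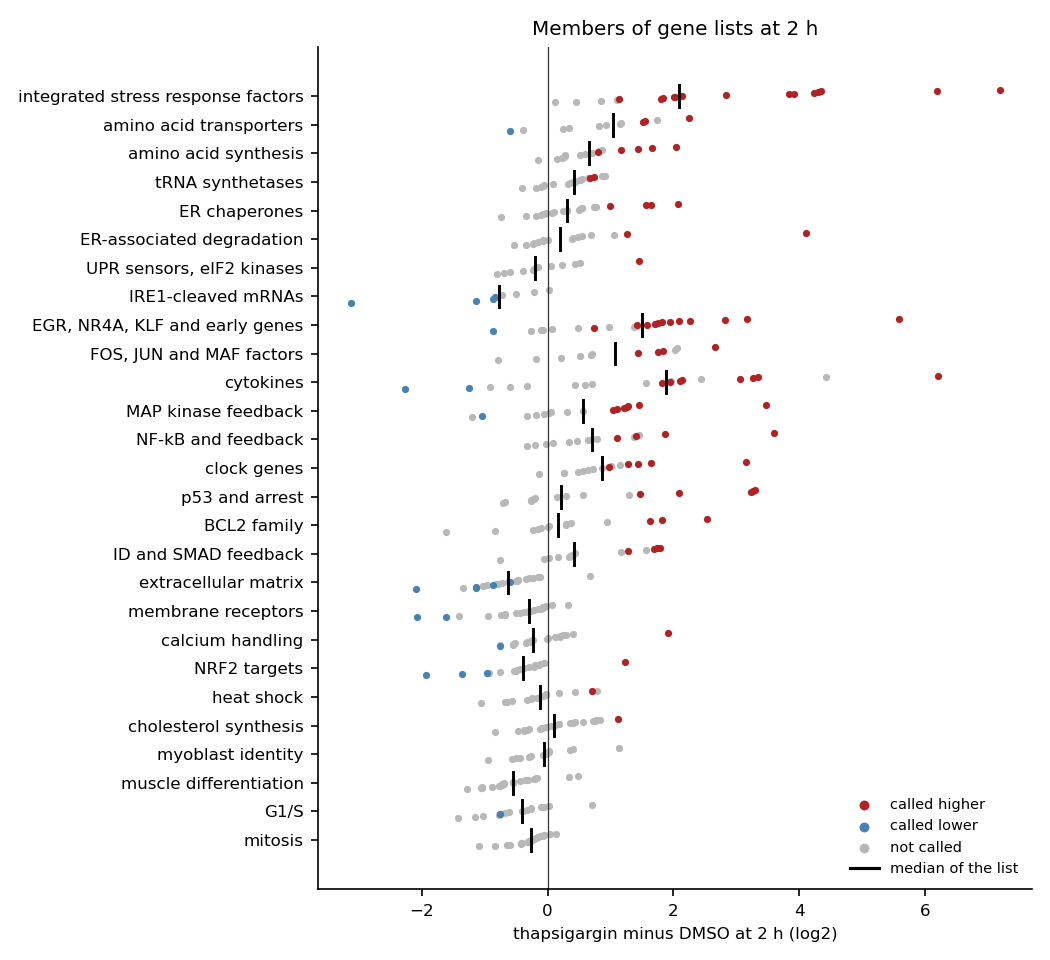
Log2 difference between thapsigargin and DMSO at 2 h (horizontal axis) of each tested member of 27 gene lists (rows), with called-higher members in red, called-lower members in blue and a black bar at the list's median. Integrated stress response factors have 14 of 18 members called higher. Matrix genes have 5 of 23 called lower, and mRNAs known as IRE1 targets (row IRE1-cleaved mRNAs) 4 of 8, with Col6a1 and Sparc in both. Cleavage was not measured. The lists for myoblast identity, muscle differentiation and mitosis have none called by edgeR.

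Among 16 p53 and growth arrest genes 5 rose and none fell (median log2 0.22). These were the 3 Gadd45 genes, Btg2 and Plk2. The Gadd45 proteins bind stress kinases and slow the cell cycle. Gadd45a went from 8.7, 8.36 and 5.5 CPM to 71, 74.5 and 77.2 CPM (log2 3.30 ± 0.28, adjusted p = 5.3e-06), Gadd45b from 25.8, 26.9 and 14.2 CPM to 217, 194 and 216 CPM (log2 3.23 ± 0.36, adjusted p = 6e-05), and Gadd45g from 67.9, 55.6 and 29.8 CPM to 508, 471 and 491 CPM (log2 3.26 ± 0.63, adjusted p = 0.0072). DMSO replicate 3 was the lowest control in all 3. The p53 targets Cdkn1a (log2 -0.27), Mdm2 (0.56) and Ccng1 (-0.71) did not pass the test.

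Of 14 BCL2 family genes 3 rose and none fell (median log2 0.16), all of them for BH3-only proteins, which promote apoptosis. Without DMSO replicate 3 Bok, another pro-apoptotic member, was called lower as well (log2 -1.21, adjusted p = 0.018). Bcl2l11, which encodes BIM, went from 24.4, 24.2 and 19 CPM to 77.8, 75.6 and 85 CPM (log2 1.82 ± 0.23, adjusted p = 0.0002), and Bbc3, which encodes PUMA, from 10.1, 9.72 and 5.17 CPM to 27.9, 25.5 and 23.9 CPM (log2 1.63 ± 0.27, adjusted p = 0.0019). Bmf stood at 1.38, 1.44 and 0.14 CPM in DMSO, lowest in replicate 3, and 6.15, 5.75 and 5.41 CPM in thapsigargin (log2 2.54 ± 0.56, adjusted p = 0.016, lost on leaving out thapsigargin replicate 1, adjusted p up to 0.057). The survival genes Mcl1 (log2 0.37) and Bcl2l1 (0.01) did not pass.

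Of 15 clock genes 5 rose and none fell (median log2 0.87), and without DMSO replicate 3 Per1 was called as well (log2 1.01 with that library and 1.69 without it, adjusted p = 0.083 and 0.00024). Ciart, a repressor of the clock's activators, went from 1.93, 1.89 and 2.4 CPM to 18.1, 19.2 and 18.1 CPM (log2 3.15 ± 0.32, adjusted p = 3.1e-05), and Cry2, another repressor, from 14.1, 13.8 and 9.46 CPM to 23.5, 24.5 and 24.9 CPM (log2 0.97 ± 0.18, adjusted p = 0.0063). Nr1d1, which encodes REV-ERB alpha, stood at 30.2, 35 and 89.8 CPM in DMSO and 171, 157 and 156 CPM in thapsigargin, a log2 difference of 1.64 (adjusted p = 0.0069), or 2.31 without DMSO replicate 3. Dbp rose by 1.27 and Bhlhe40 by 1.43, whose call was lost on leaving out any 1 library but DMSO replicate 3, adjusted p up to 0.082.

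Among the increases were inhibitors of TGF-beta and BMP signalling: of 15 ID, SMAD and related genes 4 rose and none fell (median log2 0.42). Smad7, which blocks the TGF-beta receptor, went from 77.3, 71.8 and 53.7 CPM to 227, 226 and 227 CPM (log2 1.74 ± 0.34, adjusted p = 0.0077), and Smad6, which blocks BMP receptors, from 13.9, 11.9 and 9.74 CPM to 43.8, 38.7 and 40.6 CPM (log2 1.79 ± 0.34, adjusted p = 0.0067). The groups were well apart in both. Id3, an inhibitor of MyoD-type factors, rose by 1.69 (adjusted p = 0.0089) and Skil by 1.27 (adjusted p = 0.031, lost on leaving out any 1 library but DMSO replicate 3, adjusted p up to 0.11). Among 13 regulators of mRNA decay and early repressors Hes1 and Csrnp1 rose (median log2 0.32). Without DMSO replicate 3 the median was 0.88 and 4 were called, with Zfp36l1 (log2 1.35, adjusted p = 0.027) and Per1 in addition, and 5 of the 13 were more than 2-fold higher in that library than in the other controls. Hes1, a repressor downstream of Notch, went from 43.6, 40 and 48.7 CPM to 216, 208 and 193 CPM (log2 2.22 ± 0.21, adjusted p = 1.3e-05), and Csrnp1, a nuclear early gene, from 26.9, 27.3 and 24.6 CPM to 180.2, 176 and 182 CPM (log2 2.77 ± 0.29, adjusted p = 3.8e-05).

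Of 21 calcium pumps, channels and sensors 1 rose and 1 fell (median log2 -0.23, and -0.02 with library totals), where 4.52% of all genes tested were called. Atp2a2 (chr5:122453513-122502225), which encodes the SERCA2 pump that thapsigargin inhibits, stood at 553, 556 and 535 CPM in DMSO and 568, 546 and 518 CPM in thapsigargin. The groups overlapped, and the log2 difference was -0.01 ± 0.26 (adjusted p = 1). Atp2a3, for the SERCA3 pump, rose from 1.16, 0.611 and 1.09 CPM to 3.5, 3.42 and 3.87 CPM (log2 1.91 ± 0.34, adjusted p = 0.0039). Atp2b4, a calcium pump of the plasma membrane, fell from 140.5, 150.4 and 198 CPM to 95, 103 and 91.8 CPM (log2 -0.76 ± 0.20, adjusted p = 0.04, lost on leaving out any 1 library but DMSO replicate 1, adjusted p up to 0.15). Of 10 calcineurin and NFAT genes Rcan1, a calcineurin inhibitor that NFAT induces, was called, at 41.1, 37.2 and 45.5 CPM in DMSO and 131, 119 and 137 CPM in thapsigargin (log2 1.64 ± 0.20, adjusted p = 0.00012).

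The genes that fell were mostly abundant, which the test for a decrease partly requires, and included surface and secreted proteins. Lrp1 (chr10:127538161-127621148), a large endocytic receptor, went from 1923, 1721 and 1908 CPM to 410.3, 459 and 456 CPM. The controls agreed closely, and the log2 difference was -2.07 ± 0.19, a 4.19-fold lower mean (adjusted p = 1.2e-05). Ccnf, which encodes cyclin F, went from 75, 75.2 and 70.2 CPM to 20.5, 19.8 and 24.3 CPM and had the smallest adjusted p of the named decreases (log2 -1.77 ± 0.16, adjusted p = 9.2e-06). Pxdn, a peroxidase that cross-links collagen IV, fell from 154, 154 and 164 CPM to 39.6, 38.7 and 41.4 CPM (log2 -1.98 ± 0.30, adjusted p = 0.00095). Hspg2, which encodes the basement membrane proteoglycan perlecan, fell from 980.0, 901 and 1268 CPM to 339, 362 and 302 CPM (log2 -1.65 ± 0.24, adjusted p = 0.00075). In these 4 genes every drug library was below every control, which the rule for naming them required.

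Prl2c3, a secreted prolactin-family gene, went from 462, 498 and 382 CPM to 91.2, 99.5 and 119.8 CPM (log2 -2.11 ± 0.26, adjusted p = 0.00014), and since it belongs to a family of close copies, reads may be split among them. Oaf, a secreted protein gene, had 85.8, 78.2 and 47.4 CPM in DMSO and 15.6, 18.6 and 16.9 CPM in thapsigargin (log2 -2.05 ± 0.34, adjusted p = 0.0021). Slc1a3, a glutamate transporter, had 9.5, 11 and 12.1 CPM and 2.98, 3.4 and 2.34 CPM (log2 -1.90 ± 0.34, adjusted p = 0.0036). Trappc1, of the TRAPP vesicle tethering complex, differed by -1.83 ± 0.47 (adjusted p = 0.036, lost on leaving out any 1 library but DMSO replicate 3, adjusted p up to 0.15).

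A further set of decreases was larger with DMSO replicate 3 than without it. S100a11, a calcium-binding protein, stood at 349, 377 and 1495 CPM in DMSO and 80.3, 89.7 and 95.1 CPM in thapsigargin, so that 1 control was about 4 times as high as the others. Its log2 difference was -3.07 ± 0.63 (adjusted p = 0.01) with that library and -2.04 (adjusted p = 0.051) without it. Dynap moved from -1.80 to -0.94, Cd55, a complement regulator, from -1.72 to -1.07, Fam222b from -1.66 to -0.98, Ogn from -2.09 to -1.48 and the adaptor gene Ywhae from -0.97 to -0.49. Of these, Dynap, Fam222b and Ogn were still called without it (adjusted p = 0.0049, 0.00088 and 0.031), and Cd55 and Ywhae were not (0.14 and 0.058), nor on leaving out any 1 thapsigargin library. The call of S100a11 was lost on leaving out DMSO replicate 3 or thapsigargin replicate 1 or 2, adjusted p up to 0.064, and that of Dynap was lost on leaving out thapsigargin replicate 1, adjusted p up to 0.052. Cd44, the hyaluronan receptor, went from -0.85 to -0.59 and Gstm1 from -1.93 to -1.67, both then uncalled (0.067 and 0.12). The call of Cd44 was also lost on leaving out any 1 thapsigargin library, and that of Gstm1 on leaving out any 1 library. C1qtnf1 kept its call (log2 -1.20, adjusted p = 0.012). In all of these genes each drug library lay below each control, which the rule for naming them required.

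Of 23 extracellular matrix genes none rose and 5 fell, and 22 had a negative difference (median log2 -0.63). With library totals none was called (median -0.41). The 5 were Col4a2 (log2 -0.59), Col6a1 (-1.13), Col6a3 (-1.13), Sparc (-0.86) and Ogn (-2.09), and 2 of them were called without DMSO replicate 3. Col6a3, at 778, 792 and 977 CPM in DMSO and 360.1, 408 and 394 CPM in thapsigargin, then had an adjusted p of 0.054, and its call was lost on leaving out DMSO replicate 3 or any 1 thapsigargin library, adjusted p up to 0.097. That of Col4a2 was lost on leaving out any 1 library, adjusted p up to 0.16. Col1a1 (log2 -0.63), Col3a1 (-1.02) and Fn1 (-0.72) did not pass the test. Of 23 membrane receptors, Lrp1 and Notch3 fell and none rose (median log2 -0.30), and without DMSO replicate 3 or with library totals 1 was called. Notch3 stood at 118, 100.0 and 114 CPM and 34.4, 40.1 and 34 CPM (log2 -1.61 ± 0.39, adjusted p = 0.026, lost on leaving out any 1 library, adjusted p up to 0.12).

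Of 20 targets of NRF2, the regulator of antioxidant genes, 1 rose and 3 fell, and 19 had a negative difference (median log2 -0.40, and -0.19 with library totals, where 2 fell). In the fit without DMSO replicate 3 none rose and 5 fell, with Nqo1, Pgd and Prdx1 in addition (log2 -0.70, -0.72 and -1.23, adjusted p = 0.02, 0.012 and 0.027). G6pdx, the first enzyme of the pentose phosphate pathway, fell from 134, 136 and 155 CPM to 70.5, 70.8 and 75.5 CPM (log2 -0.97 ± 0.14, adjusted p = 0.0008). Gsta4, a glutathione transferase, fell from 146, 151 and 121 CPM to 50.2, 51.5 and 60.9 CPM (log2 -1.36 ± 0.29, adjusted p = 0.012, lost on leaving out thapsigargin replicate 1 or 2, adjusted p up to 0.071). The gene that rose was Osgin1, a stress-induced growth inhibitor (log2 1.23 ± 0.29, adjusted p = 0.023, lost on leaving out any 1 library, adjusted p up to 0.083). Among 17 regulators of the G1/S step Ccne1 and Cdc25a fell and none rose (median log2 -0.41), and with library totals none was called. Cdc25a, a phosphatase that activates CDK2, went from 49.4, 51.5 and 38.8 CPM to 27, 27.5 and 27.9 CPM (log2 -0.76 ± 0.17, adjusted p = 0.014, lost on leaving out DMSO replicate 2 or any 1 thapsigargin library, adjusted p up to 0.074), and Ccne1, for cyclin E1, from 34.3, 34.1 and 48.2 CPM to 23, 22.4 and 23.7 CPM (log2 -0.75 ± 0.18, adjusted p = 0.023, lost on leaving out DMSO replicate 3 or any 1 thapsigargin library, adjusted p up to 0.11).

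Over all genes tested 4.52% were called, which for lists of this size is near 0 or 1 gene. In the cell identity and housekeeping lists edgeR called 0 or 1 gene each, except for 2 of 11 snoRNA host genes. It called none of 14 myoblast identity genes (median log2 -0.05), none of 23 genes of muscle differentiation (-0.55, with 21 negative), none of 23 DNA replication genes (-0.11), none of 24 mitosis genes (-0.26), none of 18 autophagy genes (-0.10), none of 20 initiation factor genes (-0.13) and none of 13 YAP and TEAD targets (0.13). DESeq2 called 1 myoblast gene higher, 2 muscle differentiation genes lower, 1 replication gene higher and 1 lower, 2 mitosis genes lower, 2 autophagy genes higher and 1 lower, no initiation factor gene and 1 YAP and TEAD target higher. Over all 18039 genes DESeq2 called 1002 higher and 691 lower, so its few calls here stand against a larger share than that of edgeR. At an unadjusted p under 0.05 edgeR gave 1, 4, 3, 4, 5, 2 and 3 genes of these 7 lists, in the order from myoblast genes to YAP and TEAD targets. The share of all genes at that threshold is not given here, so these counts and the like counts below have no background to be read against. Myod1, the master factor of the lineage, stood at 219.5, 198 and 219 CPM in DMSO and 167, 158 and 142 CPM in thapsigargin (log2 -0.44 ± 0.23, adjusted p = 0.37). Myf5, another of the myoblast markers, went the other way. It stood at 31.53, 34.75 and 50.45 CPM in DMSO and 87.89, 96.87 and 73.12 CPM in thapsigargin. A single gene rose among 17 heat shock genes, the cochaperone Dnajb1 (log2 0.71, adjusted p = 0.02, lost on leaving out any 1 thapsigargin library, adjusted p up to 0.075), among 25 genes of cholesterol synthesis, Insig1 (1.12, 0.03, lost on leaving out any 1 library but DMSO replicate 1, adjusted p up to 0.11), and among 20 of glycolysis, Hk2 (0.93, 0.046, lost on leaving out any 1 library, adjusted p up to 0.14). Of 11 snoRNA host genes, many of whose spliced transcripts are known to be broken down during translation, Snhg1 (1.64) and Snhg17 (1.29) were called (median log2 0.71, and 0.32 without DMSO replicate 3). The call of Snhg1 was lost on leaving out any 1 library but DMSO replicate 2, adjusted p up to 0.097, and that of Snhg17 was lost on leaving out any 1 library, adjusted p up to 0.12.

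The medians of 3 lists of abundant genes differed with and without DMSO replicate 3. The 13 mitochondrially encoded mRNAs had a median log2 difference of -2.02 with it and -0.43 without it, and edgeR over the libraries of all groups called none either way (6 at an unadjusted p under 0.05 with it), while DESeq2 called 1 lower and the 5 libraries of 2 h fitted alone without that replicate called 10 lower. The medians of 30 ribosomal protein genes were -0.14 and -0.45, and those of 30 nuclear genes of oxidative phosphorylation -0.22 and -0.48, with 0 and 0 called in the first list and 0 and 1 in the second. In those 5 libraries alone 29 and 27 of the 30 were called lower, where 4193 of 15176 genes were. In DMSO replicate 3 ribosomal protein genes were lower than in the other controls by a median of 1.14 on the log2 scale (log2 ratio -1.14), and nuclear oxidative phosphorylation genes by 0.99 (log2 ratio -0.99).

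**Figure D4:**
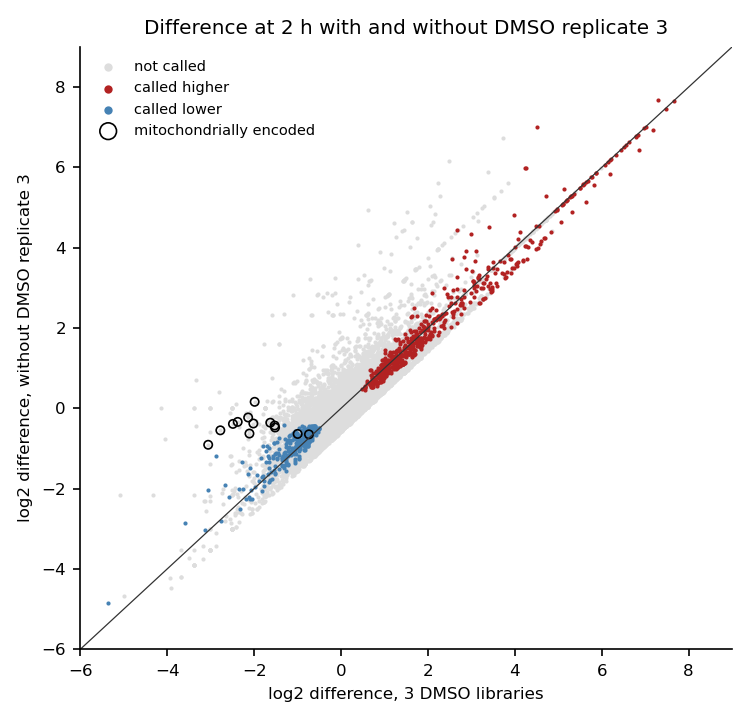
Log2 difference at 2 h of each gene with all 3 DMSO libraries (horizontal axis) and without DMSO replicate 3 (vertical axis), with the line of equal values. Genes called higher in the comparison (red) and called lower (blue) keep their sign, which the gap between their groups nearly fixes. The 13 mitochondrially encoded genes (open circles) move from a median of -2.02 to -0.43.

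Among markers of other cell types edgeR called 1 gene. Cldn4, an epithelial tight junction gene, stood at 1.1, 0.75 and 0.223 CPM in DMSO and 6.04, 3.77 and 4.44 CPM in thapsigargin (log2 2.77 ± 0.55, adjusted p = 0.008). Of 7 epithelial genes tested 5 had a positive difference (median log2 1.96), while Cdh1, which defines epithelium, had 1.55, 1.14 and 1.23 CPM in DMSO and 0.635, 0.448 and 0.484 CPM in thapsigargin. Of 4 macrophage, 4 endothelial, 5 adipocyte and 7 osteoblast genes edgeR called none (1, 1, 0 and 1 at an unadjusted p under 0.05). DESeq2 called 3 epithelial genes and 1 endothelial gene higher and 1 osteoblast gene lower, where it called 1002 higher and 691 lower of all 18039. In bulk samples, the number of cells of a type and their RNA per cell cannot be told apart.

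Many of the first changes were still present later, each compared with the DMSO group of its own time. Of the 543 genes that rose at 2 h, 392 (72.2%) were also called higher at 6 h, where 13% of all genes tested were, and 235 (43.3%) at 12 h, where 6.29% were. The 392 are 16.7% of the genes called higher at 6 h, and 20 of the 543 were called lower there. Of the 273 genes that fell, 177 (64.8%) were called lower at 6 h, against 8.79% of all genes, and 105 (38.5%) at 12 h, against 6.77%. The 177 are 11.2% of the decreases of 6 h. The medians of the 543 genes were 1.65, 1.59 and 0.96 at 2, 6 and 12 h, and those of the 273 were -0.99, -0.97 and -0.66. Both sets were chosen at 2 h, so part of any shrinkage is fixed by the choice.

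A direct test of the 6 h response against the 2 h response was passed by 719 genes (3.99% of 18039). The number was 1557 with DESeq2, 321 with library totals, 1252 with length and GC offsets, 332 with a replicate block, 421 to 443 without any 1 thapsigargin library of 2 h, and 467 without DMSO replicate 1 of 6 h. Several early factors changed sign between 2 and 6 h. Egr1 had log2 differences of 2.82 at 2 h, -1.85 at 6 h and -4.73 at 12 h, a change between 2 and 6 h of -4.67 ± 0.65 (adjusted p = 0.00062). Egr2 went through 1.95, -2.22 and -5.27 (change -4.17 ± 0.55, adjusted p = 0.00038), and Dusp2 through 3.47, -1.27 and -0.89 (change -4.73 ± 0.55, adjusted p = 0.00015). Tcim, a small regulator gene, had 3.37, -0.91 and -2.48 (change -4.29 ± 0.32, adjusted p = 1.8e-06), with 5.8, 3.97 and 4.13 CPM in DMSO and 50.7, 39.4 and 54 CPM in thapsigargin at 2 h. Hist1h1b, a linker histone gene, stood at 0.304, 0.195 and 0.112 CPM in DMSO and 13.1, 11.6 and 10.7 CPM in thapsigargin at 2 h, and its difference fell from 5.83 to 0.41 at 6 h (change -5.42 ± 1.26, adjusted p = 0.023). Chac1 had log2 differences of 7.18, 3.66 and 3.86 and was called at all 3 times, but its mean level in thapsigargin was higher at 6 h (723 CPM) than at 2 h (501 CPM), and the smaller difference came with a higher level in DMSO (57.1 CPM at 6 h and 3.46 CPM at 2 h).

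Other stress factors kept similar differences. Atf4 had log2 differences of 2.03, 1.52 and 1.59 at 2, 6 and 12 h, and its change between 2 and 6 h did not pass (adjusted p = 0.51). Ddit3 had 4.35, 4.44 and 4.01, Atf3 4.30, 4.51 and 4.21, and Herpud1 4.11, 4.18 and 4.09. A similar difference need not be a steady level. From 2 to 6 h Atf4 went from 839 to 1871 CPM in thapsigargin and from 206 to 653 CPM in DMSO. Ddit3 went from 132 to 1189 CPM in thapsigargin and from 6.5 to 54.9 CPM in DMSO. Herpud1 went from 819 to 1320 CPM and from 47.3 to 72.6 CPM, and Atf3 from 319 to 383 CPM and from 16.2 to 16.8 CPM. Some differences grew after 2 h. Atp2a3, the SERCA3 gene, had 1.91 at 2 h and 7.56 at 6 h (change 5.64 ± 0.53, adjusted p = 2.2e-05). P2rx7, a receptor for ATP, grew by 4.03 ± 0.27 (adjusted p = 8.5e-07), the adrenergic receptor gene Adra1b by 3.99 ± 0.50 (0.00026) and Acot2, a mitochondrial thioesterase, by 3.06 ± 0.36 (0.00016). Between 2 and 6 h the mean CPM of Atp2a3, P2rx7, Adra1b and Acot2 rose in thapsigargin and fell in DMSO. Tnfsf15, a TNF family ligand, fell at 2 h (log2 -1.11, adjusted p = 0.015, lost on leaving out thapsigargin replicate 1 or 2, adjusted p up to 0.1) and was higher than DMSO at 6 h (log2 1.99, adjusted p = 0.00013). Its mean level in thapsigargin was nevertheless lower at 6 h (1.44 CPM) than at 2 h (10.8 CPM). In DMSO Tnfsf15 went from 23.25 CPM at 2 h to 0.356 CPM at 6 h. The call of P2rx7 at 2 h was lost on leaving out DMSO replicate 1 or 2 or thapsigargin replicate 1 or 2, adjusted p up to 0.14, and that of Adra1b was lost on leaving out DMSO replicate 2 or 3 or thapsigargin replicate 1, adjusted p up to 0.066.

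**Figure D5:**
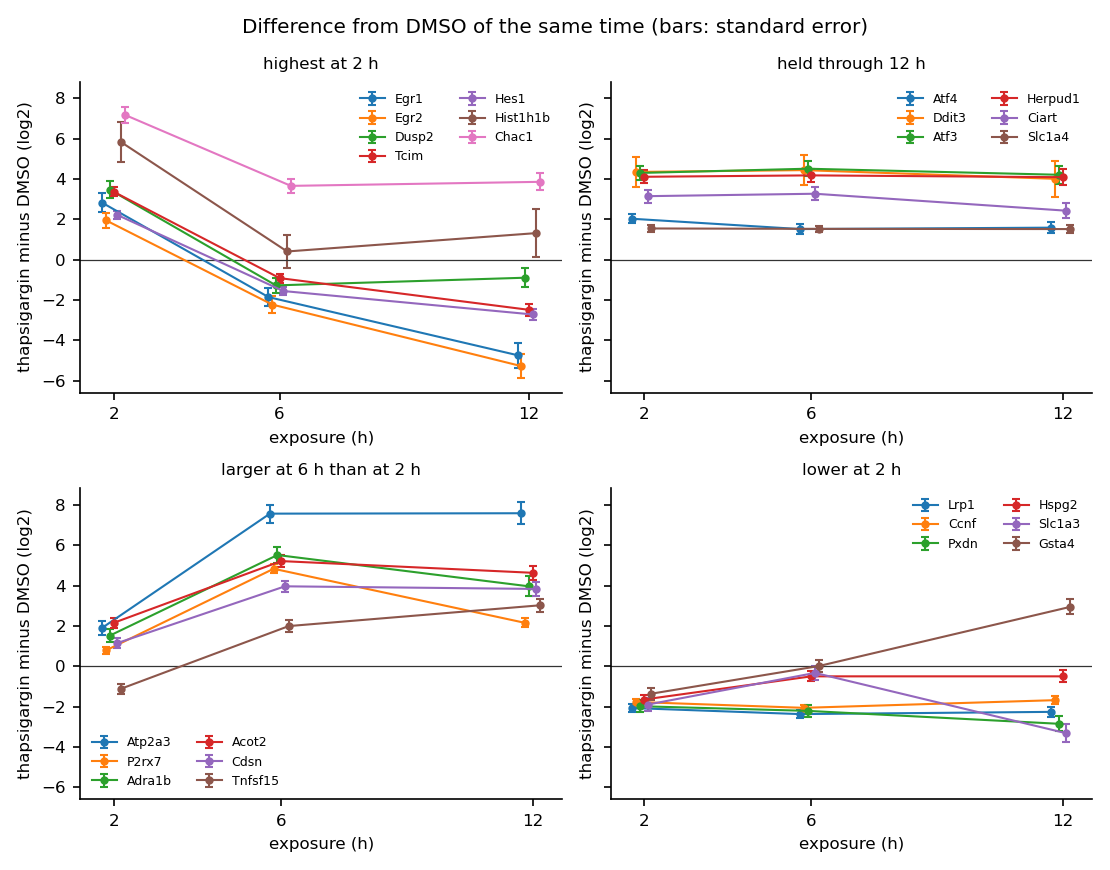
Log2 difference between thapsigargin and DMSO of the same time (vertical axis, bars show the standard error) after 2, 6 and 12 h of exposure (horizontal axis), in 4 panels of genes named by the shape of their course. Egr1 goes from 2.82 to -4.73, Atf4 stays between 1.52 and 2.03, Atp2a3 goes from 1.91 to 7.58, and Lrp1 stays near -2.

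Counts of called members at later times are given for 8 of the lists. Integrated stress response factors had 14 of 18 called higher at 2 h, 16 at 6 h and 14 at 12 h, with medians of 2.08, 2.48 and 2.52. ER chaperones had 4 of 22 called higher at 2 h and 15 at 6 h, tRNA synthetases 2 and 14 of 20, and amino acid enzymes 5 and 13 of 16. EGR, NR4A and KLF factors had 12 higher and 1 lower of 22 at 2 h and 7 higher and 5 lower at 6 h, with medians of 1.50 and 0.16. MAP kinase feedback genes had 7 higher and 1 lower of 17 at 2 h and 3 higher and 7 lower at 6 h. Matrix genes had 5 of 23 called lower at 2 h and 13 at 6 h, and G1/S regulators 2 and 9 of 17. Over all genes tested the share called higher was 3.01% at 2 h, 13% at 6 h and 6.29% at 12 h. The share called lower was 1.51%, 8.79% and 6.77%, so calls grew between 2 and 6 h outside these lists too. These are counts at each time, and the change of a list between times was not tested.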

How the data were processed

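Polyadenylated RNA was sequenced from 6 libraries of 2 h, 3 with DMSO and 3 with thapsigargin, and all 19 libraries of the series entered the fit. The tools named in the submitters' processing notes are Trim Galore, STAR 2.5.3a, bedtools 2.31.0 and DESeq2, with the build mm10. Program, annotation and strand setting of the counting: not given in the sources used here. Each deposited file holds 1 library's raw counts, whole numbers made by the authors. Lines of unassigned reads, 13.72% to 20.64% of each 2 h library, were left out. Of 55401 identifiers 55141 matched GENCODE M21 (GRCm38). edgeR 4.0.16 (limma 3.58.1, R 4.3.3) scaled counts by TMM, filtered genes by filterByExpr (18039 left), and fitted 1 quasi-likelihood model with a mean for each of the 7 groups and no replicate block, and p-values were adjusted by Benjamini-Hochberg. Sharing the spread over all 19 libraries gave a biological coefficient of variation of 0.352, against 0.21 in the 6 libraries of 2 h alone. A gene was called at adjusted p under 0.05, and SE is the log2 difference divided by the root of F. CPM values use TMM-scaled totals and are not divided by length, so levels are compared within a gene. Every pair of replicates of 2 h differed by more than sampling noise (mean chi-square per gene of 3.35 or more, where a mean of 1 is expected). The lowest median was 1.17, for thapsigargin replicates 1 and 2, which is not to be read against the expected mean of 1. The method was tested on simulated data.

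Named genes were 10 stress genes fixed by name, the 15 highest and 15 lowest log2 differences among called genes of at least 5 CPM whose groups do not overlap, 6 genes with the largest gain and 6 with the largest loss in CPM, up to 2 called members of each list in each direction, and 5 genes at each end of the change from 2 to 6 h. Other called list members are named to account for the counts. Gene lists and the choice of this comparison were made with earlier results of these data known. Alternatives were DESeq2 1.42.0, other scalings, no filter, length and GC offsets, a replicate block and leaving out libraries. A fit of the 5 libraries of 2 h without DMSO replicate 3, and totals of genes that are not mitochondrially encoded, were added after seeing the data.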

Additional observations from a re-analysis of the deposited data

Results flagged for a closer look

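The response at 6 h differed from the response at 2 h in 35 of the named genes, by the test of the difference itself (edgeR, adjusted p under 0.05). Values are the log2 response at 6 h minus that at 2 h. In 25 genes this was negative, and in 10 it was positive.

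The most negative values were those of genes that had risen at 2 h: Hist1h1b -5.42, Dusp2 -4.73, Egr1 -4.67, Tcim -4.29, Egr2 -4.17, Hes1 -3.77, Chac1 -3.51 and Hist1h1d -3.49. Smaller negative values among the genes that rose at 2 h were those of the arrest gene Gadd45b (-2.50), the chemokine Cxcl5 (-2.46), Arc (-2.27), the cytokine Lif (-2.15), Junb (-2.14), Spry2 (-1.96), Bcl2l11 (-1.92), Sesn2 (-1.82), the cochaperone Dnajb1 (-1.70), the inhibitor Nfkbia (-1.68), Ccl7 (-1.67), Csrnp1 (-1.60) and Trib3 (-1.48). A smaller response need not be a lower level under the drug: of these 21 genes 18 had a lower mean CPM in thapsigargin at 6 h than at 2 h, while Chac1 (501 CPM at 2 h and 723 CPM at 6 h), Trib3 (191 and 520.3 CPM) and Sesn2 (161 and 193 CPM) had a higher one, and their DMSO levels were 3.46 and 57.1, 2.62 and 19.9, and 11.2 and 47.4 CPM. Genes that had fallen at 2 h and were lower still against DMSO at 6 h were Ccne1 (-2.50), Oaf (-2.27), Col6a1 (-1.76) and Cx3cl1 (-0.79).

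Positive values belonged to Atp2a3 (5.64), P2rx7 (4.03), Adra1b (3.99), Tnfsf15 (3.10), Acot2 (3.06), Cdsn (2.81), the clock repressor Cry2 (1.62), Gpt2 (1.38), Asns (1.08) and Aars (0.93). Tnfsf15 was the 1 gene among them that had fallen at 2 h. It was also the 1 of the 10 with a lower mean CPM in thapsigargin at 6 h than at 2 h, while 9 had a higher one. The 3 drug libraries and the 3 control libraries of 2 h enter both this difference and the 2 h result, so the values are not independent of it.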

How the results depend on the processing

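At 2 h the count of calls (816, of which 543 higher) was 1693 with DESeq2, 1434 with length and GC offsets, 518 with library totals, 533 with totals of genes that are not mitochondrially encoded, 2404 in the 6 libraries of 2 h alone, 1859 without the 2 libraries of high mitochondrial share and 8407 of 15176 genes in the 5 libraries of 2 h alone. It ranged from 320 to 670 when 1 library was left out, and was lowest without thapsigargin replicate 1 and 380 and 410 without thapsigargin replicates 2 and 3, and 498 and 589 without DMSO replicates 2 and 1. At 6 h (3926 calls) no alternative moved the count by over 1.5 times. At 12 h (2356) library totals gave 1546, and leaving out 1 library gave 1124 to 1211. The change from 2 to 6 h (719) gave 1557 with DESeq2, 1252 with offsets, 321 with library totals and 332 with a replicate block, and 421 to 793 leaving out 1 library. Whether replicate numbers pair the samples is not labelled. Deviations of same-numbered libraries from their group means correlated at -0.004, 0.02 and 0.004 at 2 h and at 0.303, -0.608 and 0.391 at 6 h. With 3 libraries a group these deviations depend on each other, so the correlations cannot settle it. The replicate block gave 627 calls at 2 h (755 in the 6 libraries alone). Of 96 called named genes 65 kept their call whichever single library was left out. Every named gene kept its direction under every alternative except Atp2a2, uncalled at -0.01, which was 0.00 with DESeq2, with its size factors in edgeR and without DMSO replicate 2, 0.21 with library totals, 0.14 with totals of genes that are not mitochondrially encoded, 0.02 without thapsigargin replicate 3 (from -0.04 to 0.02 over the single libraries left out), 0.03 in the 6 libraries alone with or without a block, and 0.04 in the 5 libraries and without the 2 of high mitochondrial share. The groups of the called named genes did not overlap, so their direction was nearly fixed when 1 library was left out. Sizes of the 2 h differences rest on 3 libraries a group, and depth limits genes near the floor of 3 counts (0.0833 CPM in a DMSO library).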

Other observations

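Histone genes were a group that no list held, and they are named here after their values were seen. Of 46 tested genes whose symbols begin with Hist and a digit, 9 were called higher and none lower, 36 had a positive difference, and the median log2 difference was 1.20. Their summed mean level went from 63.4 CPM in DMSO to 242 CPM in thapsigargin. The called genes were the linker histone genes Hist1h1a, Hist1h1b, Hist1h1c and Hist1h1d and the core histone genes Hist1h3d, Hist1h4i, Hist2h3c2, Hist3h2a and Hist3h2ba. Hist1h1d stood at 1.27, 0.5 and 0.893 CPM in DMSO replicates 1 to 3 and 15, 12.8 and 15.3 CPM in thapsigargin. Most replication-dependent histone mRNAs have no poly(A) tail, and the libraries were made from polyadenylated RNA. Of 23 replication genes edgeR called none at 2 h (median log2 -0.11), DESeq2 called 1 higher and 1 lower, and the 6 libraries of 2 h alone gave 1 higher and 2 lower.

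The Usp17l family of deubiquitinases, also chosen after its values were seen, was close to silent in DMSO. Of 4 genes tested 3 were called higher and all 4 had a positive difference, and the family's summed mean level went from 0.871 CPM to 29.8 CPM. Usp17la stood at 0.58, 0.417 and 1.26 CPM in DMSO and 21.2, 17 and 21 CPM in thapsigargin (log2 4.71 ± 0.52, adjusted p = 6.2e-05). Its log2 difference was 4.66 at 6 h and 3.86 at 12 h. The genes of this family are near copies of each other, so that their reads may be split among them.

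CArG boxes, the sites of SRF, were in the promoter windows of 8 of 376 called-higher genes (2.13%), 6 of 196 called-lower genes (3.06%) and 198 of 11784 tested genes (1.68%), searched on both strands, with no test.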
